A study of Mus musculus with 4 samples.

Results

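The 10 genes described here store and release fat: *Dgat1*, *Dgat2*, *Gpam* and *Agpat2* encode enzymes of triglyceride synthesis, *Plin1*, *Cidea* and *Cidec* encode proteins of the lipid droplet, and *Pnpla2*, *Pnpla3* and *Lipe* encode lipases. They were chosen by name with earlier results of these data known, so their counts beside shares of all genes are descriptions. Each was found on the array through 1 probe set that carries its symbol alone. They are 10 of 22180 genes so identified, and all 10 had a mean above the floor that 12963 genes passed. The arrays hold epididymal fat RNA of male mice at 16 weeks of age, labelled C57BL/6J and fed from 5 weeks of age, in 4 groups with 1 GeneChip Mouse Gene 2.0 ST array each. The groups are *Mir342* (-/-) on high fat-high sucrose (HFHS) chow, *Mir342* (+/+) on HFHS chow, *Mir342* (-/-) on standard (STD) chow and *Mir342* (+/+) on STD chow. The mice were littermates from chimeras of C57BL/6N background crossed with C57BL/6JJcl, the deletion is carried by every tissue, and a selection cassette replaces the miRNA within an intron of *Evl*. The methods name 3 individual animals from each group and do not say whether an array holds 1 animal or a pool.

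The deletion removes both arms of the *Mir342* hairpin on chromosome 12, of which miR-342-3p is the arm the study follows. Its mature sequence (RefSeq, GRCm38.p6, chr12:108658680-108658702, + strand) is shown because its absence defines the *Mir342* (-/-) groups, with the seed, bases 2 to 8, in capitals.
mmu-miR-342-3p: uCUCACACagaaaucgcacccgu
The probe set of *Mir342* read 4.46 in HFHS *Mir342* (-/-) against 5.52 in HFHS *Mir342* (+/+), and 4.62 in STD *Mir342* (-/-) against 5.43 in STD *Mir342* (+/+). Its mean of 5.01 lies under the floor of 5.06, so it is a weak check of the genotype labels.

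White adipocytes build triglyceride in steps. GPAM adds the first fatty acid to glycerol phosphate, AGPAT2 adds the next, a phosphatase removes the phosphate, and DGAT1 or DGAT2 adds the last fatty acid. The product is kept in a droplet coated with perilipin 1 and enlarged by CIDEC, and it is released in fasting by adipose triglyceride lipase (PNPLA2), hormone-sensitive lipase (LIPE) and monoglyceride lipase in turn. PNPLA3 is a close relative of PNPLA2 whose gene is induced by feeding and insulin.

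Values are log2 expression values as the authors deposited them, so a difference of 1 is a 2-fold difference. With 1 array per group, a difference between 2 arrays has no error of its own. The only test fitted genotype and diet together over the 4 arrays with limma, leaving 1 residual degree of freedom, and adjusted p over 12963 genes by Benjamini-Hochberg. The error in that fit is any difference of the diet effect between genotypes, moderated by a prior that limma takes over all genes. It holds no spread between replicates, and the p-values describe these arrays alone. In bulk tissue, fewer adipocytes and less of an mRNA per adipocyte cannot be told apart.

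On HFHS chow, *Dgat2*, *Pnpla3* and *Agpat2* rose in epididymal fat, and none of the other 7 genes passed the test. *Pnpla3* was 4.09-fold and *Dgat2* 2.95-fold higher on HFHS chow in the fit over both genotypes, and *Agpat2* was 1.77-fold higher. For the last step of synthesis, compared after the values were seen, *Dgat2* was higher on HFHS chow. *Dgat1* was 1.18-fold lower but did not pass, so a fall of *Dgat1* is not shown. The main lipases of fasting, *Pnpla2* and *Lipe*, and the droplet protein *Cidec* spanned no more than 0.28 log2 units over the 4 arrays. The 3 of 10 that rose compare with 1.29% of all genes tested that rose, and the 0 that fell with 0.54%. At an unadjusted p under 0.05 there were 5 of the 10, *Plin1* and *Cidea* being the others, against 19.7% of all genes.

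**Figure D1:**
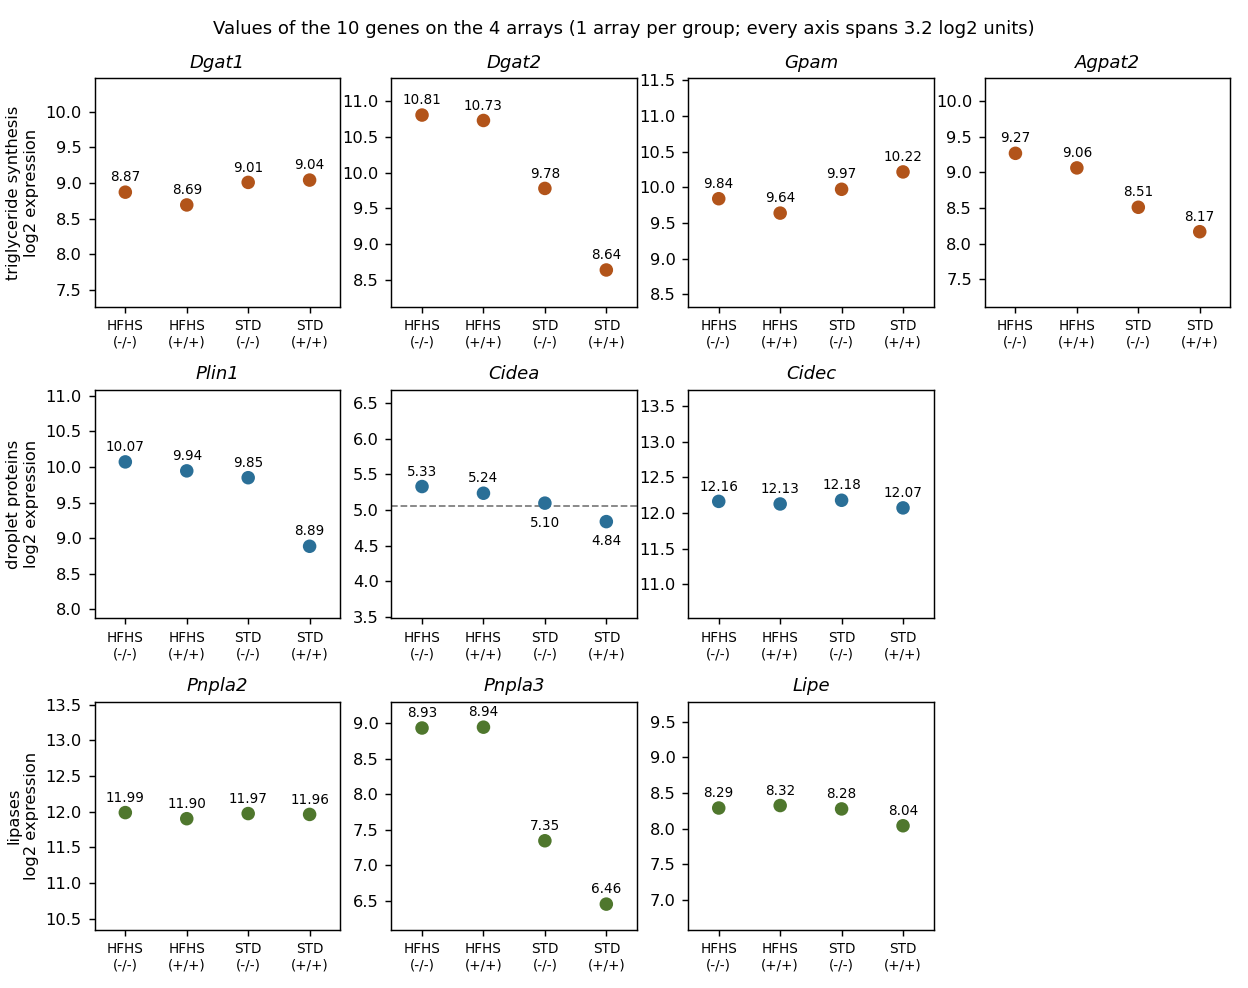
Log2 expression of each gene on the 4 arrays, 1 point per array, with synthesis enzymes in the top row, droplet proteins in the middle and lipases at the bottom; every vertical axis spans the same number of log2 units, and the dashed line in the *Cidea* panel is the floor of 5.06. *Dgat2*, *Agpat2* and *Pnpla3* are high on both HFHS arrays, *Plin1* is low on the STD *Mir342* (+/+) array alone, and *Cidec* and *Pnpla2* are level.

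Among the synthesis enzymes, *Dgat2* read 10.81 in HFHS *Mir342* (-/-) and 10.73 in HFHS *Mir342* (+/+), against 9.78 in STD *Mir342* (-/-) and 8.64 in STD *Mir342* (+/+). Both HFHS arrays lay above both STD arrays, and the STD arrays lay further apart from each other than the HFHS arrays did. Its diet coefficient was 1.56 ± 0.24 (standard error; adjusted p = 0.0411, limma).
*Agpat2*, whose loss causes lipodystrophy in people and mice, read 9.27 in HFHS *Mir342* (-/-) and 9.06 in HFHS *Mir342* (+/+), against 8.51 in STD *Mir342* (-/-) and 8.17 in STD *Mir342* (+/+). Again the diets did not overlap. The coefficient was 0.83 ± 0.13 (adjusted p = 0.0393, limma), and the difference was of like size in *Mir342* (-/-) at 0.76 and in *Mir342* (+/+) at 0.89.
*Gpam*, which encodes the mitochondrial acyltransferase of the opening step, read 9.84 in HFHS *Mir342* (-/-) and 9.64 in HFHS *Mir342* (+/+), against 9.97 in STD *Mir342* (-/-) and 10.22 in STD *Mir342* (+/+). Both HFHS arrays lay below both STD arrays, by 0.13 in *Mir342* (-/-) and 0.58 in *Mir342* (+/+). The coefficient of -0.36 ± 0.15 did not pass (adjusted p = 0.26, limma).
*Dgat1* read 8.87 in HFHS *Mir342* (-/-) and 8.69 in HFHS *Mir342* (+/+), against 9.01 in STD *Mir342* (-/-) and 9.04 in STD *Mir342* (+/+). It too was lower on both HFHS arrays, with a coefficient of -0.24 ± 0.13 that did not pass (adjusted p = 0.362, limma). Set side by side after their values were seen, the diet difference of *Dgat2* exceeded that of *Dgat1* by 1.17 in *Mir342* (-/-) and by 2.45 in *Mir342* (+/+).

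Among the lipases, *Pnpla3* had the widest range of all 10 genes. It read 8.93 in HFHS *Mir342* (-/-) and 8.94 in HFHS *Mir342* (+/+), against 7.35 in STD *Mir342* (-/-) and 6.46 in STD *Mir342* (+/+). The HFHS arrays were level with each other, and both lay far above both STD arrays. Its coefficient was 2.03 ± 0.22 (adjusted p = 0.0263, limma).
*Pnpla2*, the lipase that opens triglyceride breakdown, read 11.99 in HFHS *Mir342* (-/-) and 11.90 in HFHS *Mir342* (+/+), against 11.97 in STD *Mir342* (-/-) and 11.96 in STD *Mir342* (+/+). The 4 values span 0.09 log2 units, and the coefficient was -0.02 ± 0.12 (adjusted p = 0.942, limma). The diet difference of *Pnpla3* exceeded that of *Pnpla2* by 1.57 in *Mir342* (-/-) and 2.54 in *Mir342* (+/+).
*Lipe* read 8.29 in HFHS *Mir342* (-/-) and 8.32 in HFHS *Mir342* (+/+), against 8.28 in STD *Mir342* (-/-) and 8.04 in STD *Mir342* (+/+). It was level on 3 arrays and 0.24 to 0.28 lower on the STD *Mir342* (+/+) array, and its coefficient of 0.15 ± 0.13 did not pass (adjusted p = 0.603, limma).

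Among the droplet proteins, *Plin1*, whose product coats the droplet and holds lipases off it until it is phosphorylated, read 10.07 in HFHS *Mir342* (-/-) and 9.94 in HFHS *Mir342* (+/+), against 9.85 in STD *Mir342* (-/-) and 8.89 in STD *Mir342* (+/+). Only the STD *Mir342* (+/+) array stood apart. The diet difference was therefore 0.22 in *Mir342* (-/-) and 1.06 in *Mir342* (+/+), and the coefficient of 0.64 ± 0.20 did not pass (adjusted p = 0.163, limma).
*Cidec*, which drives the fusion of droplets into a large one, read 12.16 in HFHS *Mir342* (-/-) and 12.13 in HFHS *Mir342* (+/+), against 12.18 in STD *Mir342* (-/-) and 12.07 in STD *Mir342* (+/+). The diets overlapped, and the coefficient was 0.02 ± 0.12 (adjusted p = 0.951, limma).
*Cidea*, its relative and a marker of brown fat in mice, was close to the floor at 5.33 in HFHS *Mir342* (-/-) and 5.24 in HFHS *Mir342* (+/+), against 5.10 in STD *Mir342* (-/-) and 4.84 in STD *Mir342* (+/+). The last value is under the floor, so the diet difference in *Mir342* (+/+) is a bound of at least 1.13-fold. The coefficient of 0.32 ± 0.13 did not pass (adjusted p = 0.24, limma). Beside it, 5 of 9 markers of thermogenic fat had a mean above the floor, and 0 of the 5 passed the test for diet. Of these 5, 2 were higher on HFHS chow in *Mir342* (-/-) and 4 in *Mir342* (+/+). *Cox8b* differed by 0.603 in *Mir342* (-/-) and 1.398 in *Mir342* (+/+), and *Cox7a1* by 0.465 and 0.822. Their adjusted p was 0.0657 and 0.0781 (limma). *Cox8b* was under the floor on the STD *Mir342* (+/+) array and *Cox7a1* on both STD arrays. *Ppargc1a* differed by -0.296 and -0.819 in the same order of genotypes. *Ucp1*, *Elovl3* and *Dio2* were under the floor on all 4 arrays.
*Cidec* and *Pnpla2*, which varied least, lay near the top of the scale, where the highest value was 12.90. The 25 genes at or above the mean of *Pnpla2* had a median range over the arrays of 0.10, against 0.36 for all genes. Whether the scale narrows differences at that brightness was not tested.

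Set against each other, the roles did not separate by direction on HFHS chow. In *Mir342* (-/-) mice the median log2 diet difference was 0.31 for the 4 synthesis enzymes, 0.22 for the 3 droplet proteins and 0.01 for the 3 lipases, against 0.05 for all 12963 genes. In *Mir342* (+/+) mice it was 0.27, 0.40 and 0.28 in the same order of roles, against 0.02 for all genes. The droplet value of 0.40 is that of *Cidea*, whose STD *Mir342* (+/+) value is under the floor. With that value set to the floor, *Cidea* differed by 0.17 and was still the middle of the 3 droplet proteins. The synthesis median lies between 2 enzymes that were higher and 2 that were lower on HFHS chow in both genotypes. Without *Pnpla3* the lipase median in *Mir342* (+/+) was 0.11. At least 1.5-fold higher on HFHS chow were 3 of the 10 in *Mir342* (-/-), where 3.12% of all genes were, and 4 of the 10 in *Mir342* (+/+), where 6.53% were; 0 of the 10 were as much lower, against 1.31% and 4.67% of all genes. In 6 of the 10, *Dgat2*, *Agpat2*, *Plin1*, *Cidea*, *Pnpla3* and *Lipe*, both HFHS arrays lay above both STD arrays, as in 29.4% of all genes, though after quantile normalization *Lipe* was 0.02 lower on HFHS chow in *Mir342* (-/-) mice. In *Dgat1* and *Gpam* both lay below, as in 19.4%.

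**Figure D2:**
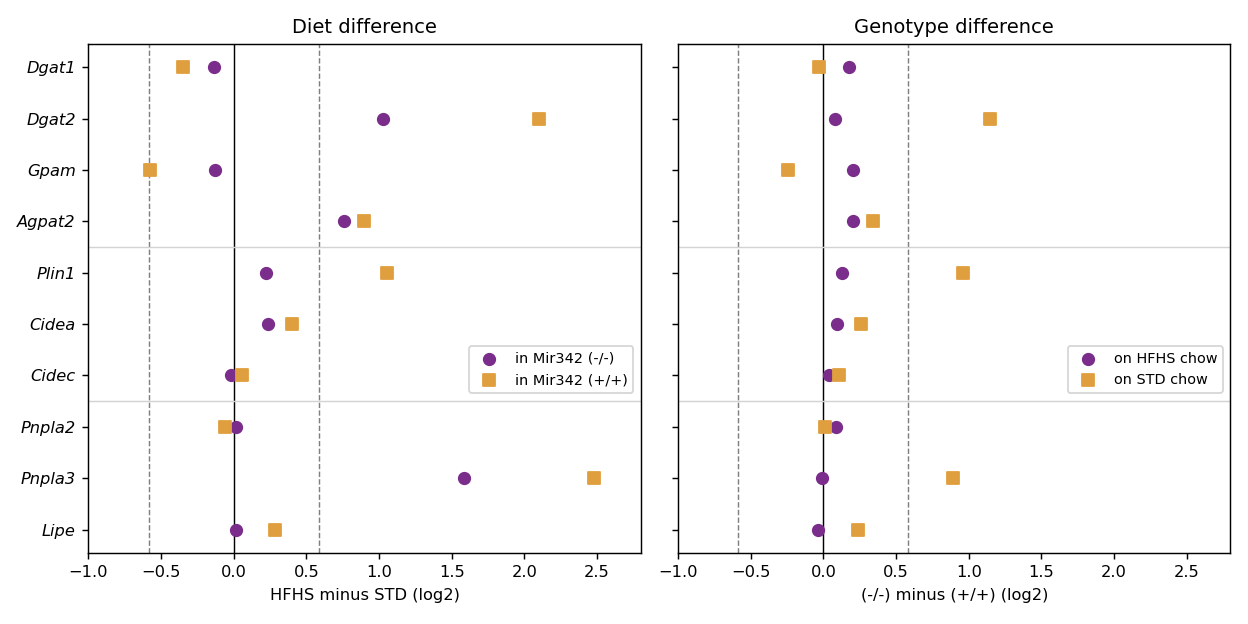
Log2 difference of each gene between 2 arrays: HFHS minus STD chow within each genotype on the left, and *Mir342* (-/-) minus *Mir342* (+/+) on each chow on the right; dashed lines mark 1.5-fold. In *Dgat2*, *Pnpla3* and *Plin1* the diet difference is larger in *Mir342* (+/+) and the genotype difference is larger on STD chow. These larger differences share the STD *Mir342* (+/+) array. The excess in each gene also draws on the other arrays, and which array it comes from was not tested.

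The calls for diet depend on the processing and on the form of the fit. After quantile normalization or without the floor, 0 genes passed and the adjusted p of *Dgat2*, *Agpat2* and *Pnpla3* lay between 0.0966 and 0.168 (limma), while their coefficients after quantile normalization were 1.55, 0.81 and 1.99. With diet as the only term over the 4 arrays, a fit added after the data were examined, the coefficients were the same and 0 genes passed, with adjusted p of 0.0703 for *Pnpla3*, 0.0969 for *Agpat2* and 0.116 for *Dgat2* (limma) and 2125 genes at an unadjusted p under 0.05. With 1 array left out of that form of fit, the diet left with 1 array was set against the spread between the other diet's 2 arrays, which differ in genotype. Then *Pnpla3* alone of the 10 passed without the HFHS *Mir342* (-/-) array, *Dgat2*, *Plin1* and *Pnpla3* passed without the STD *Mir342* (-/-) array, and 0 passed without either *Mir342* (+/+) array. Without the STD *Mir342* (+/+) array the coefficients were 1.59 for *Pnpla3*, 0.99 for *Dgat2*, 0.65 for *Agpat2* and 0.16 for *Plin1*, all smaller than over the 4 arrays.
Some markers of cell types differed with diet as well. The mean of 12 macrophage markers was 7.71 in HFHS *Mir342* (-/-) and 7.87 in HFHS *Mir342* (+/+), against 7.24 in STD *Mir342* (-/-) and 7.62 in STD *Mir342* (+/+). Of the 12, 11 were higher on HFHS chow in *Mir342* (-/-) and 9 in *Mir342* (+/+), against 7514 and 6824 of all 12963 genes. *Adgre1*, the gene of a surface receptor of mature macrophages, rose by 0.94 ± 0.12 (adjusted p = 0.0321, limma). Of 7 markers of fibroblasts and preadipocytes *Pi16* alone passed, at 1.15 ± 0.16, and of 11 of adipocytes *Npr3* alone, at 1.39 ± 0.22 (adjusted p = 0.0363 and 0.0411, limma). Both lists were mixed. Of the 7, 4 were higher on HFHS chow in *Mir342* (-/-) and 5 in *Mir342* (+/+), with *Pdgfra* at -0.32 and *Dcn* at -0.19. Of the 11, 7 were higher in *Mir342* (-/-) and 9 in *Mir342* (+/+). The part of these cells in the diet differences of the 10 genes was not tested.

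Promoters are shown for *Pnpla3* and *Agpat2*, which rose, for *Pnpla2*, the relative of *Pnpla3* that did not pass, and for *Plin1*, which was low on the STD *Mir342* (+/+) array alone. Windows from 250 bases before to 50 after the annotated start were matched in RefSeq (GRCm38.p6) for 7 of the 10 genes, in 10 windows. *Dgat1*, *Dgat2* and *Cidea* were not matched. Capitals mark, on either strand, the CCAAT box (CCAAT), the GC box (GGGCGG) and the C/EBP motif (TTGCNNAA); overlapping matches are counted each.
Pnpla3 (chr15:84167566-84167865, + strand): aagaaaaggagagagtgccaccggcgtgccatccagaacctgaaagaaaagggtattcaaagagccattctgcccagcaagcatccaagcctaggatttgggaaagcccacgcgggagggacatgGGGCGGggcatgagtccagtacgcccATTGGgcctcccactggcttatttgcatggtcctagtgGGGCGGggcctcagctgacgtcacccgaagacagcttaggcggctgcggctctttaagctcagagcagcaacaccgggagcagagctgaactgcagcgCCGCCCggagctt
Pnpla2 (chr7:141454938-141455237, + strand): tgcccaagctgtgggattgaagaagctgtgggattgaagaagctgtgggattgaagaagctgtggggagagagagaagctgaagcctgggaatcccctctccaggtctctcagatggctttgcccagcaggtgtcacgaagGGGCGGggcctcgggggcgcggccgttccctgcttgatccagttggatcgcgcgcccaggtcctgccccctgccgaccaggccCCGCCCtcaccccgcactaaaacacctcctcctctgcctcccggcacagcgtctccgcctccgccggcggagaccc
Agpat2 (chr2:26604368-26604667, - strand): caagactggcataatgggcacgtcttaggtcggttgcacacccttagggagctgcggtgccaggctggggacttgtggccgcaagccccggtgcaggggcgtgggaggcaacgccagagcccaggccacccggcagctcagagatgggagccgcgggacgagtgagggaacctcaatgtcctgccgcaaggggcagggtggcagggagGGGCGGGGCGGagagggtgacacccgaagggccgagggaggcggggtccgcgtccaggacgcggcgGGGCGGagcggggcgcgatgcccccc
Plin1 (chr7:79732727-79733026, - strand): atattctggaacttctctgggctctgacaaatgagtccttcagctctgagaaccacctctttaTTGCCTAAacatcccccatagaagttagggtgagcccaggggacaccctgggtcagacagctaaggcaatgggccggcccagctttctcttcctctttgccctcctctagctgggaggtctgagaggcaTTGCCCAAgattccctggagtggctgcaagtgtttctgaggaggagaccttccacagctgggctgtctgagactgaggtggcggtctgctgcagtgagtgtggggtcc
The *Pnpla3* window holds 3 GC boxes and 1 CCAAT box, that of *Pnpla2* 2 GC boxes and no CCAAT box, and that of *Agpat2* 3 GC boxes, of which a pair overlap. GC boxes occur in 35.7% and CCAAT boxes in 37.4% of all 32851 windows, and in 5 and 2 of the 10 windows of these genes. The *Plin1* window holds 2 C/EBP motifs, which occur in 10.8% of all windows and in 3 of the 10. Matches are descriptions of letters and not sites of binding.

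In *Mir342* (-/-) fat on STD chow, *Dgat2*, *Plin1* and *Pnpla3* read higher than in *Mir342* (+/+) fat, and on HFHS chow the genotypes were close in all 10 genes. On STD chow *Dgat2* was 2.21-fold higher in *Mir342* (-/-), *Plin1* 1.95-fold and *Pnpla3* 1.85-fold. These are the 3 of 10 genes at least 1.5-fold higher, where 1.79% of all genes were, and 0 of the 10 were as much lower, where 3.95% were. At 2-fold *Dgat2* alone remained, against 0.224% of all genes. On HFHS chow the largest difference was 1.15-fold, in *Agpat2* and *Gpam*, and 0 of the 10 were 1.5-fold apart in either direction, against 0.447% of all genes higher and 0.849% lower.
For genotype, the limma fit called 0 genes (0.0%) in either direction over the whole table. At an unadjusted p under 0.05 there were 1081 genes (8.34%), with *Dgat2* at 0.61 ± 0.24 and *Plin1* at 0.54 ± 0.20 among them (adjusted p = 0.59 and 0.585). *Agpat2* had a genotype coefficient of 0.27 ± 0.13, with differences of 0.20 on HFHS and 0.34 on STD chow. *Cidec* and *Pnpla2* were the 2 genes in which both *Mir342* (-/-) arrays lay above both *Mir342* (+/+) arrays, as in 12.7% of all genes, by no more than 0.11 in either gene on either chow, and with the arrays centred on their medians *Pnpla2* on STD chow was 0.04 lower in *Mir342* (-/-). In 0 of the 10 did both lie below, as in 19.6% of all genes.
*Gpam* was 0.20 higher in *Mir342* (-/-) on HFHS chow and 0.24 lower on STD chow. Its genotype coefficient was -0.02 ± 0.15.
By role, the median genotype difference on HFHS chow was 0.19 for synthesis enzymes, 0.09 for droplet proteins and -0.01 for lipases, against -0.03 for all genes. On STD chow it was 0.16, 0.26 and 0.24 in the same order, against -0.06 for all genes. The droplet value of 0.26 is again that of *Cidea*, with its STD *Mir342* (+/+) value under the floor. With that value set to the floor, *Cidea* differed by 0.04, and the middle droplet value was 0.11, that of *Cidec*.

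The diet difference was larger in *Mir342* (+/+) than in *Mir342* (-/-) by 1.07 in *Dgat2*, 0.90 in *Pnpla3* and 0.84 in *Plin1*, the 3 genes of the 10 in which this excess was at least 1.5-fold, where 3.59% of all genes had one; in 0 of the 10 was it as much smaller, against 4.03%. With 1 array per group this difference between genotypes was not tested, and the fit counts it as error. It is the same number as the excess of the genotype difference on STD over that on HFHS chow, and both comparisons share the STD *Mir342* (+/+) array. That array was the lowest of the 4 in 7 of the 10 genes, against 28.2% of all genes, and the highest in *Dgat1* and *Gpam*, against 33.5%.
The same array differed in its marker genes. The mean of 11 adipocyte markers of a list of 14 was 11.0 in HFHS *Mir342* (-/-), 11.0 in HFHS *Mir342* (+/+), 10.8 in STD *Mir342* (-/-) and 10.5 in STD *Mir342* (+/+), with *Lep* spread widely and *Fabp4*, *Lpl* and *Car3* level. All 7 duct epithelium markers, a list chosen like the others with earlier results known, were highest on the STD *Mir342* (+/+) array. With values under the floor set to the floor, their mean was 5.42 in HFHS *Mir342* (-/-), 5.46 in HFHS *Mir342* (+/+), 5.5 in STD *Mir342* (-/-) and 7.07 in STD *Mir342* (+/+). *Mmp7* read 8.71 there and 5.44 or less on the other 3 arrays, and *Cuzd1*, *Prom1* and *Epcam* were under the floor on those 3. The mean of 6 mesothelium markers, by the same rule, was 6.83 in HFHS *Mir342* (-/-), 6.70 in HFHS *Mir342* (+/+), 6.86 in STD *Mir342* (-/-) and 6.24 in STD *Mir342* (+/+). On STD chow all 6 were higher in *Mir342* (-/-), against 5413 of all 12963 genes, with a median difference of 0.80. Of the 6, 4 were at least 1.5-fold higher, against 1.79% of all genes. The mean of 8 endothelial markers was 8.75 and 8.90 on the HFHS *Mir342* (-/-) and (+/+) arrays and 8.47 and 9.08 on the STD *Mir342* (-/-) and (+/+) arrays. Here both STD arrays stood apart, the STD *Mir342* (-/-) array as the lowest and the STD *Mir342* (+/+) array as the highest. The part of these markers in the low *Dgat2*, *Pnpla3* and *Plin1* values of that array was not tested.

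The other genes of triglyceride synthesis gave 0 calls for diet in either direction among 12 above the floor. *Gpd1*, which makes glycerol phosphate, had the largest coefficient at 0.69 ± 0.12 (adjusted p = 0.0535, limma) and read 8.86 in HFHS *Mir342* (-/-) and 9.01 in HFHS *Mir342* (+/+), against 8.21 in STD *Mir342* (-/-) and 8.28 in STD *Mir342* (+/+). *Lpin1*, the phosphatase gene of the step before DGAT, was at -0.58 ± 0.12 (adjusted p = 0.0747) and the microsomal acyltransferase gene *Gpat4* at -0.52 ± 0.12 (adjusted p = 0.0931), both lower on both HFHS arrays like *Gpam* and *Dgat1*. *Agpat1*, an isoenzyme of *Agpat2*, was at 0.31 and *Mogat2*, of the monoacylglycerol route, at 0.16.
The other droplet genes gave 0 calls among 13. *Cav1* was at 0.57 ± 0.15 and *Cavin1* at 0.52 ± 0.14, both of which form caveolae of the adipocyte surface. *Fitm2* at -0.32 ± 0.13, *Plin3* at 0.32 ± 0.12 and *Tmem159* at 0.25 ± 0.14 came next. *Plin4* at -0.13 and *Plin2* at 0.13 were closer to no difference.
Of 15 other genes of lipolysis and its control, *Hcar1* alone passed, rising by 1.46 ± 0.18 (adjusted p = 0.0303, limma). It encodes the lactate receptor that restrains lipolysis, and read 8.48 in HFHS *Mir342* (-/-) and 8.17 in HFHS *Mir342* (+/+), against 6.67 in STD *Mir342* (-/-) and 7.06 in STD *Mir342* (+/+). Among those that did not pass, *G0s2*, which encodes an inhibitor of PNPLA2, was at 0.74 ± 0.21 and *Abhd5*, which encodes its activator, at -0.45 ± 0.16 (adjusted p = 0.133 and 0.196). *Ces1f* was at -0.89 ± 0.23 and *Prkaca*, the catalytic subunit gene of protein kinase A, at 0.69 ± 0.14 (adjusted p = 0.106 and 0.0657, limma). *Prkar2b* was at 0.57 ± 0.17 (adjusted p = 0.143, limma). The monoglyceride lipase gene *Mgll* was at 0.54 ± 0.12 and the phosphodiesterase gene *Pde3b* at -0.54 ± 0.13 (adjusted p = 0.0862 and 0.1, limma). The list was mixed in direction. On HFHS chow 8 of the 15 were higher and 7 lower in *Mir342* (-/-), and 9 were higher and 6 lower in *Mir342* (+/+).

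**Figure D3:**
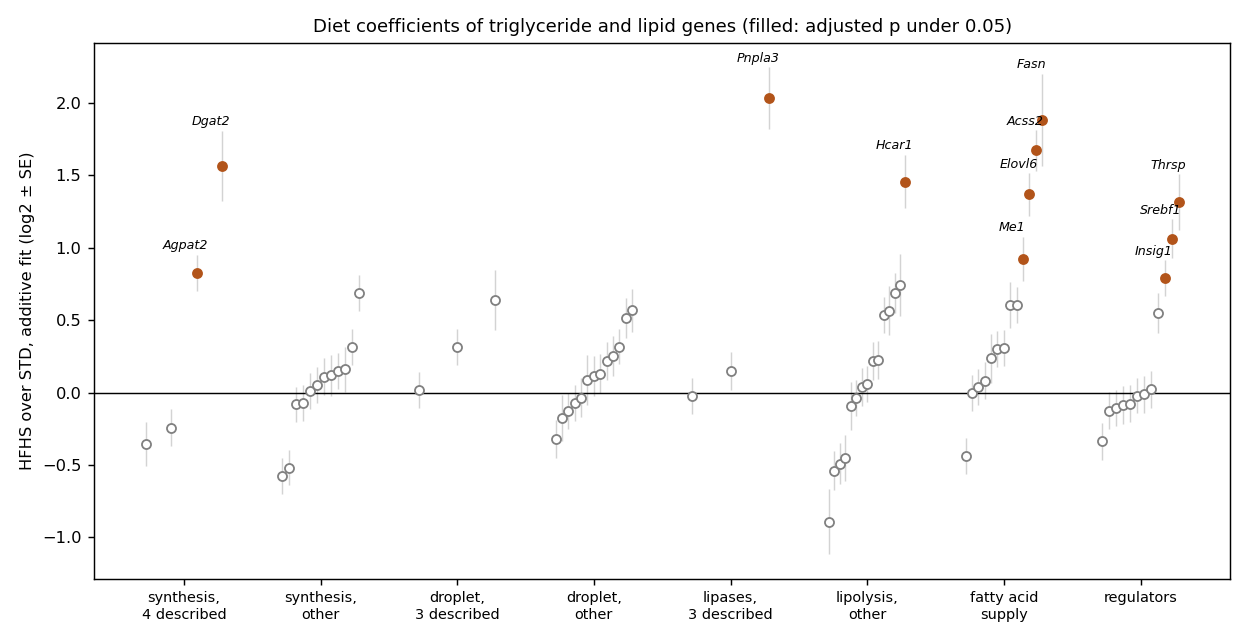
Diet coefficient (HFHS over STD chow, log2, with its standard error) of each gene above the floor in 8 lists, from the fit over the 4 arrays; filled points passed an adjusted p of 0.05. Filled points are 2 synthesis genes, *Pnpla3*, *Hcar1*, 4 fatty acid supply genes and 3 regulators, and no droplet gene is filled.

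Genes that supply fatty acids and regulators of lipid genes were counted in the same way. These lists too were chosen with earlier results of these data known, so the counts are descriptions. Of 13 fatty acid supply genes 4 rose and 0 fell, against 1.29% and 0.54% of all genes. Fatty acid synthase, *Fasn*, rose by 1.88 ± 0.32 (adjusted p = 0.048, limma) and *Acss2*, which makes acetyl-CoA from acetate, by 1.67 ± 0.14 (adjusted p = 0.012). The elongase gene *Elovl6* rose by 1.37 ± 0.15 and *Me1*, the gene of the malic enzyme that makes NADPH, by 0.92 ± 0.15 (adjusted p = 0.0263 and 0.0476, limma). The other 9 did not pass, with coefficients from -0.44 in *Slc27a1* to 0.60 in *Slc2a4* and *Vldlr* and with *Lpl* at 0.00 ± 0.12. Of 12 regulators 3 rose and 0 fell, against the same shares of all genes. They were *Srebf1*, the sterol and insulin responsive activator of lipogenic genes, at 1.06 ± 0.13 (adjusted p = 0.0303, limma), *Insig1*, which holds SREBP in the endoplasmic reticulum, at 0.79 ± 0.12 (adjusted p = 0.0411), and *Thrsp*, which promotes lipogenesis, at 1.31 ± 0.19 (adjusted p = 0.0381). The other 9 did not pass, from *Mlxipl*, which encodes the carbohydrate sensor ChREBP, at -0.34 ± 0.13 to *Cebpa*, an activator of adipocyte genes, at 0.55 ± 0.14 (adjusted p = 0.222 and 0.1, limma). All 11 calls among the 10 genes and the 5 lists of lipid genes rest on the same 4 arrays, and 0 were lower on HFHS chow.

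The genes with profiles most like those of the most variable synthesis gene and the most variable droplet or lipase gene were mixed in function. The lipogenic genes *Fasn* and *Thrsp* were among them, and neither was the nearest to *Dgat2* or *Pnpla3*. Likeness was the distance between log2 values of the 4 arrays, each gene centred on its own mean, among 12315 genes. Nearest to *Dgat2* were *Ptger3*, the gene of an antilipolytic prostaglandin receptor, at a distance of 0.35, *Gamt*, which makes creatine, at 0.35, *Thrsp* at 0.38, *Fasn* at 0.39 and *Orm1* at 0.40. Nearest to *Pnpla3* were *Aldh1a7* at 0.29, *Ptger3* at 0.31, *Fasn* at 0.34, *Bmp3* at 0.37 and *Lctl* at 0.45, which was under the floor on both STD arrays. *Ptger3* read 8.98 in HFHS *Mir342* (-/-) and 9.02 in HFHS *Mir342* (+/+), against 7.63 in STD *Mir342* (-/-) and 6.89 in STD *Mir342* (+/+). Like *Dgat2* and *Pnpla3* it was level on HFHS chow and lowest on the STD *Mir342* (+/+) array. With 4 arrays, such distances describe these arrays and were not tested.

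**Figure D4:**
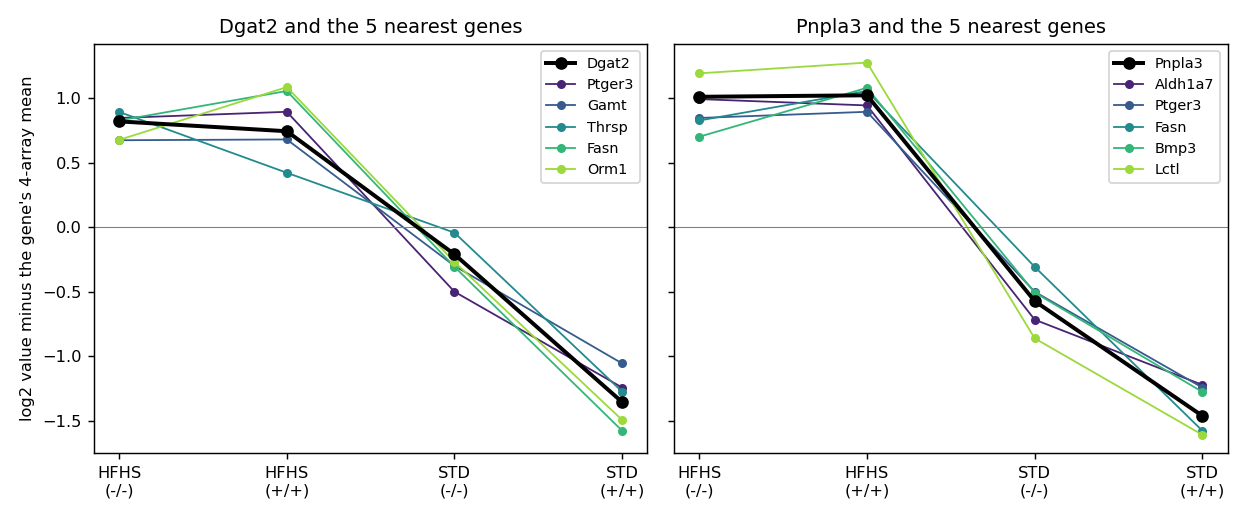
Log2 value minus the gene's own 4-array mean on each array, for *Dgat2* (left) and *Pnpla3* (right) in black and the 5 nearest genes of each in colour; lines join the arrays only to guide the eye. All profiles are high on both HFHS arrays and lowest on the STD *Mir342* (+/+) array.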

How the data were processed

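The authors deposited 1 table of log2 expression values per transcript cluster, with 41345 probe sets and 1 column per array, made by a summarization and normalization not given in the sources used here. Total RNA was extracted with Trizol and labelled by the GeneChip WT PLUS protocol. The labels' genotype and diet placed each array, and 0 columns were left out. Arrays have no depth in reads, and their number, 1 per group, limits the precision. Medians over all probe sets were 5.09 in HFHS *Mir342* (-/-), 5.06 in HFHS *Mir342* (+/+), 5.14 in STD *Mir342* (-/-) and 5.09 in STD *Mir342* (+/+). Probe sets with 1 symbol were kept (23521; 1820 had several and 16004 none), with the highest mean taken for 1082 genes with several. The floor was the 95th percentile of 1443 olfactory, vomeronasal and taste receptor probe sets.

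limma 3.58.1 (R 4.3.3) fitted genotype and diet as additive terms over the 4 arrays, with 5.45 prior degrees of freedom. The fit was run on simulated data with known additive changes and a spread common to all genes. Those data held no difference of the diet effect between genotypes, so the run could not show how one affects the calls. Other steps used Python 3.11.15, numpy 2.4.6 and pandas 2.3.3, and figures matplotlib 3.10.9. The 10 genes and all lists were chosen with earlier results of these data known. Named genes were the 10, those of the lists that passed the fit or had the largest diet coefficients of their list, and the 5 nearest in profile to 2 of the 10. Genes named beyond that rule (*Plin2*, *Plin4*, *Abhd5*, *Mgll*, *Pde3b*, *Lpl*, *Slc27a1*, *Evl* and markers) were chosen after their values were seen. Lists also held genes with no probe set of their own, which were not analysed here. Alternatives were quantile normalization, centring on array medians, no floor, a floor raised by 1, the mean of a gene's probe sets, trend and robust variances, and folds of 1.2 and 2. Fits with diet as the only term, over 4 arrays with 2 residual degrees of freedom and with each array left out, were added after the data were examined.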

Additional observations from a re-analysis of the deposited data

Results flagged for a closer look

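None of the 10 genes had genotype or diet differences that were at least 1.2-fold and of opposite sign in the 2 comparisons. Among 81 genes examined, the 10, their nearest profiles and the wider lists, 5 did, each in the genotype difference, *Mir342* (-/-) minus *Mir342* (+/+). With 1 array per group the difference between diets was not tested.

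*Orm1* was -0.41 on HFHS and 1.22 on STD chow, and *Bmp3* was -0.38 on HFHS and 0.77 on STD chow. *G0s2*, the gene of the PNPLA2 inhibitor, was -0.44 on HFHS and 0.45 on STD chow, while *Pnpla2* itself differed by 0.09 on HFHS and 0.01 on STD chow. *Fitm1*, a droplet formation gene close to the floor, was -0.34 on HFHS and 0.28 on STD chow. *Hcar1* had the opposite order, at 0.31 on HFHS and -0.40 on STD chow.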

How the results depend on the processing

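The count of genes called for diet was 237 in the fit as reported. Quantile normalization gave 0 calls (2463 genes at an unadjusted p under 0.05), leaving the floor off gave 0 (2853 genes), and there were 564 with the floor raised by 1. With diet as the only term it was 0 over the 4 arrays (2125 unadjusted), and with each array left out of that fit it lay between 0 (without the STD *Mir342* (+/+) array, with 2359 unadjusted) and 198. Of the 10 genes, 3 were called as reported, 0 under quantile normalization, 0 without the floor, 0 with diet as the only term, and 0 to 3 with an array left out. With trend and robust variances *Dgat2* lost its call (adjusted p = 0.0628). Genotype gave 0 calls in limma under each of the 6 other settings run, with 767 to 1606 genes unadjusted.

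Of 118 coefficients of the 10 genes recomputed under those settings, 109 kept their direction and their side of the threshold, 7 lost a call and 2 changed sign, both close to 0: *Pnpla2* for diet with centred arrays (0.0164) and *Gpam* for genotype after quantile normalization (0.0041). With an array left out, the diet coefficient of *Cidec* lay between -0.0336 (without the STD *Mir342* (+/+) array) and 0.0733, and that of *Pnpla2* between -0.0659 and 0.0195.

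With the floor raised by 1, *Cidea* dropped out and the droplet median was 0.53 for genotype on STD chow and 0.56 for diet in *Mir342* (+/+). Without *Pnpla3* the lipase median for diet in *Mir342* (+/+) was 0.11. At 2-fold, 1 of the 10 genes was called for genotype on STD chow in place of 3, and at 1.2-fold 8 for diet in *Mir342* (+/+) in place of 4. No paired analysis was possible because each group has 1 array.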
